A study of Mus musculus with 12 samples.

Results

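The genes described here encode the SR proteins, splicing factors named for a tail rich in arginine and serine. The members are the 10 genes of the deposited table whose symbol is Srsf1, Srsf2, Srsf3, Srsf4, Srsf5, Srsf6, Srsf7, Srsf9, Srsf10 or Srsf11, out of 15217 genes in all. They were chosen by name and not by a cut on their values, but with earlier results of these data known. All 10 passed the filter on low counts.

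The study applied SLAM-seq to the mouse embryonic fibroblast line NIH-3T3, whose genotype is labelled WT (wild type). SLAM-seq marks RNA made during a labelling period: cells take up 4-thiouridine (4sU), a uridine analogue, and iodoacetamide then changes the 4sU so that sequencing reads it as C. Labelling lasted 2 h at 200 µM or 800 µM, or was left out, and the chemistry was run in tubes after RNA isolation or within cells fixed in methanol. These 6 groups, 3 doses in each of the 2 procedures, held 2 libraries each, called A and B. Per the labels the procedures also differed in the temperature and time of the reaction, which therefore cannot be told apart from fixation. The cells without 4sU are the control of each procedure. The series title names a bias in quantification as its question. The labels do not say whether libraries A and B came from separate cultures, so p-values rest on the spread between the sequenced samples only, and that spread may be technical.

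SR proteins bind short motifs in exons through RNA recognition motifs and bring the splicing machinery to nearby splice sites through their arginine- and serine-rich tails. Kinases phosphorylate the tails, and the cycle of phosphorylation controls where the proteins sit in the nucleus and whether they are active. Several SR proteins limit their own amount: a surplus of protein promotes a splice form of their own mRNA that carries an early stop codon, in a so-called poison exon, and nonsense-mediated decay then degrades that form. Fibroblast lines express most of the family, as dividing cells generally do.

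The genes are spread over the genome. On GRCm38, Srsf1 (chr11:88047373-88053755) and Srsf2 (chr11:116849901-116853094, minus strand) share chromosome 11, Srsf3 (chr17:29032628-29043373) and Srsf7 (chr17:80200080-80207307, minus strand) share chromosome 17, and Srsf4 (chr4:131873617-131901706) and Srsf10 (chr4:135855747-135869908) share chromosome 4. Srsf5 lies at chr12:80945504-80950507, Srsf6 at chr2:162931528-162937121, Srsf9 at chr5:115327177-115333080 and Srsf11 at chr3:158010473-158036639 on the minus strand. All positions here come from GENCODE M21 by gene ID.

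The annotation labels decay transcripts for most members, which does not show that the protein controls them. In GENCODE M21 (GRCm38), 9 of the 10 genes have an annotated transcript subject to nonsense-mediated decay, all but Srsf10, against 30.0% of the 10827 tested protein-coding genes. A retained-intron transcript is annotated for 8 of them, all but Srsf9 and Srsf10, against 61.3% of those genes. Both kinds occur in 8 members and in 24.3% of the tested coding genes. The members also have more annotated transcripts of any kind, a median of 7.5 against 5.0, and these shares were not adjusted for that. The early stops of Srsf3, Srsf4, Srsf7, Srsf9 and Srsf11 lie in exons outside the coding sequence of the gene's protein-coding transcripts. For Srsf1, Srsf2, Srsf5 and Srsf6, which also have annotated decay transcripts, no stop passed this selection and none is printed. The stops that passed are printed here because they are the stretches through which these genes are known or annotated to feed their RNA into rapid decay. Each line gives 27 bases of the transcript from 5′ to 3′, read from the GENCODE transcripts, with the early stop codon in capitals.

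Srsf3, chr17:29039473-29039499, plus strand, exon of 456 bases: ctcaccaccctcTGAatctgcattagc
Srsf4, chr4:131884376-131884402, plus strand: catgccccagctTAGagtgcttcaccc
Srsf7, chr17:80205042-80205068, minus strand, exon of 460 bases: agtcagtcgcctTGAttcagaatgtca
Srsf9, chr5:115328414-115328440, plus strand, exon of 358 bases: acggattcacagTAGaagtactccgga
Srsf11, chr3:158024197-158024223, minus strand, exon of 109 bases: cctggttcagccTGAactatataccag
Srsf11, chr3:158023298-158023324, minus strand, exon of 117 bases: gcttttgaaagtTGAgagcacacccct

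The stop is TGA in Srsf3, Srsf7 and both Srsf11 exons and TAG in Srsf4 and Srsf9. The deposited values are per gene, so a transcript with such an exon cannot be told apart from the coding form in any result given here. Some deposited counts were not whole numbers. Counts of Srsf10 were fractional in 12 of 12 libraries, those of Srsf3 in 10, Srsf2 in 9, Srsf7 in 8 and Srsf5 in 7. Those of Srsf9 and Srsf11 were fractional in 6 each, Srsf1 and Srsf4 in 3 each and Srsf6 in 1. Levels of all members are therefore uncertain where reads are shared with other genes. Srsf2 also overlaps Mettl23 and Mfsd11 on the opposite strand, and Srsf1, Srsf4 and Srsf11 overlap gene models that carry no protein-coding label. The sources used here do not say whether counting used strand, so reads of overlapping genes cannot be told apart.

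Library totals ran from 3629634 to 7762635 counts, and 11080 genes were tested. Counts of a member ranged from 118 for Srsf4 to 4538 for Srsf3 in a library. Log counts of libraries A and B of a group correlated at 0.976 to 0.986 across genes. The 2 fixed-cell libraries with 800 µM stood farthest apart, with a chi-square per degree of freedom of 22.8 against 3.23 to 7.07 in the other groups. Library A of that pair had the lowest TMM factor, 0.835 against 0.926 to 1.15 in the rest, and the lowest new-to-total ratio of all 8 labelled libraries for 66.0% of genes and for 7 of 10 members. Results at 800 µM in fixed cells are therefore also given without it or without its partner where that changes them. All 13 fibroblast markers passed the filter, with summed levels of 17970 to 24830 in CPM (counts scaled to a common library size), while epithelial, endothelial and muscle markers summed to at most 1.54. Blood markers summed to 2.78 to 11.1 CPM, neuron markers to 4.13 to 10.9 and fat markers to 1.72 to 5.83.

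Levels of the SR genes differed widely. Per kilobase of the deposited gene length, Srsf2 was the highest at a mean of 235.7 CPM per kilobase over the 12 libraries (range 202 to 305). Srsf9 followed at 219 (137 to 287). Srsf2 was above Srsf9 in only 6 of 12 libraries, so their order did not exceed their spread. Srsf3 came next at 141 (114 to 199). Srsf11 at 115 and Srsf7 at 108 exchanged places between libraries, with Srsf11 the higher in 6 of 12.

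Srsf5 stood at 83.2 CPM per kilobase, Srsf6 at 77.0, Srsf1 at 61.8, Srsf10 at 25.2 and Srsf4 at 10.8 (7.81 to 14.4). Srsf7 exceeded Srsf5, Srsf1 exceeded Srsf10, and Srsf10 exceeded Srsf4 in 12 of 12 libraries. Srsf5 exceeded Srsf6 in 9 of 12 and Srsf6 exceeded Srsf1 in 10 of 12. Srsf4, with a coding length of 1476 bases, was above 58.2% of the tested genes per kilobase. The other 9 members were above 76.4% to 96.9% of them.

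**Figure D1:**
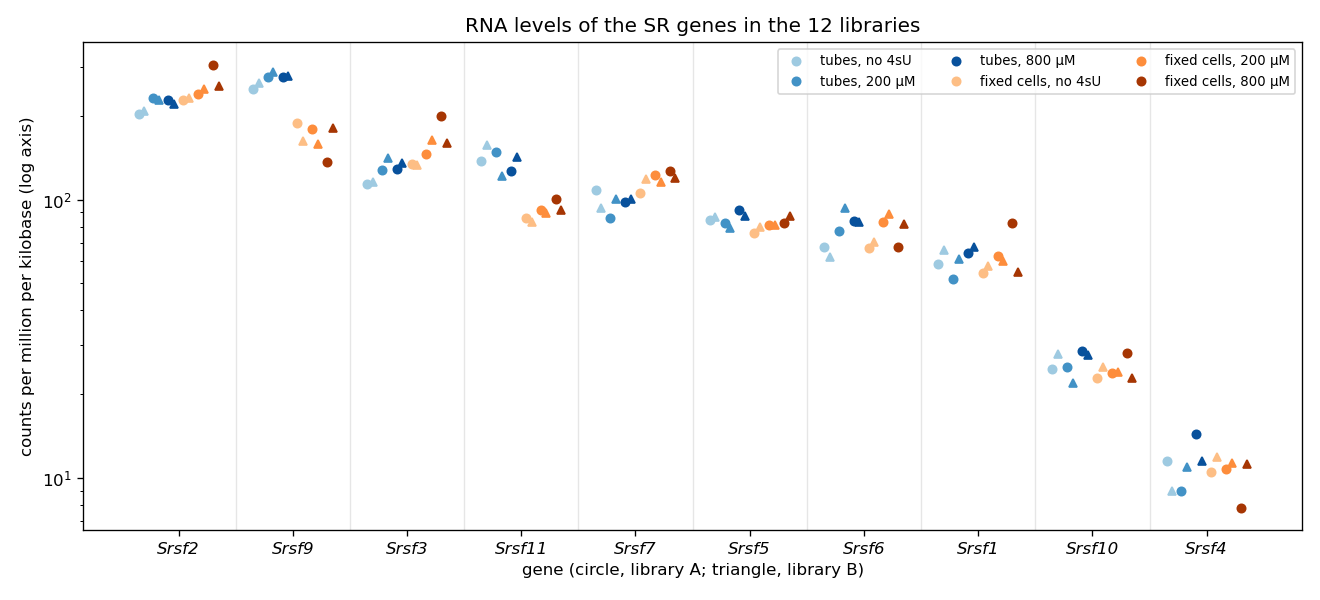
RNA level of each SR gene, in CPM per kilobase on a log axis, in each of the 12 libraries (circle, library A; triangle, library B; colour, procedure and 4sU dose). Srsf2 and Srsf9 stand at the top, between 137 and 305, and Srsf4 at the bottom, between 7.81 and 14.4; the fixed-cell libraries of Srsf11 and Srsf9 lie below their tube libraries.

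The new-to-total ratio is the authors' estimate of the share of a gene's RNA made during the 2 h of labelling. A high ratio goes with fast turnover if levels are steady. The deposited table gives it for the 8 libraries with 4sU, so it has no background from unlabelled cells. The median over the 10 SR genes was 51.2%, and the median over the 5538 genes with at least 100 counts in each of these libraries was 35.3%. The SR genes were chosen by name with earlier results of these data known, so this is a description of the family. No test was made of it.

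Srsf4, which codes for one of the largest SR proteins, had the highest ratio in the family. It stood at 86.0% and 88.0% in tubes at 200 µM, 74.1% and 88.5% in tubes at 800 µM, 71.9% and 76.4% in fixed cells at 200 µM, and 77.2% and 76.8% in fixed cells at 800 µM. Each value lay above the highest all-gene median of 42.3%. Its reads were the fewest, and the authors' interval from the 0.05 to the 0.95 quantile was up to 28.9 percentage points wide. For the other members it was at most 12.9 points wide.

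Srsf10, a splicing repressor when dephosphorylated in heat shock or mitosis, was the next with a mean of 65.2% over the 8 libraries (47.6% to 74.5%). Srsf4 exceeded Srsf10 in 7 of 8 libraries. Srsf11, the most distant relative among the members, stood at 59.9% (47.0% to 67.5%). Srsf7, an adaptor for mRNA export, stood at 53.4% (39.5% to 68.2%). Srsf5 and Srsf6, close relatives with a pair of RNA recognition motifs each, stood at 51.4% and 51.1%. Neighbours in the order from Srsf11 to Srsf6 held their places in only 5 or 6 of 8 libraries, while Srsf11 exceeded Srsf6 in 8 of 8.

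Srsf6 exceeded Srsf3, the next gene in the order, in 8 of 8 libraries. Srsf5 did not stay above the lower 4 genes everywhere: in fixed-cell library A at 800 µM it read 30.8%, against 34.0% for Srsf2 and 34.0% for Srsf9. Srsf3, the smallest SR protein by coding length (495 bases) and an export adaptor, had a mean of 38.5% (30.9% to 45.8%). Srsf2, which stays mostly in the nucleus, had 36.9% (29.9% to 44.6%), and Srsf1, the family's founding member, 31.9% (19.8% to 40.0%). Srsf9 had the lowest mean, 30.1% (23.3% to 34.0%), and was below Srsf1 in 6 of 8 libraries. Srsf1 and Srsf9 were above 44.0% and 40.8% of all genes in ratio, and Srsf4 was above 88.6%.

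Read as a half-life, under the assumption of steady levels during labelling, the ratios gave 0.641 to 1.09 h for Srsf4, 1.02 to 2.14 h for Srsf10 and 1.23 to 2.19 h for Srsf11. They gave 2.26 to 3.76 h for Srsf3, 2.71 to 6.30 h for Srsf1 and 3.33 to 5.23 h for Srsf9. Uridine content sets how many positions can carry 4sU. The main transcripts of the members had a median of 28.1% U, against 24.4% over the tested coding genes. Srsf4, with the highest ratio, had the lowest U content of the 10 in percent, 17.9%. By number, Srsf9, with the lowest mean ratio, had the fewest U, 277 against 404 in Srsf4. The part of U content in the ratios was not tested.

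**Figure D2:**
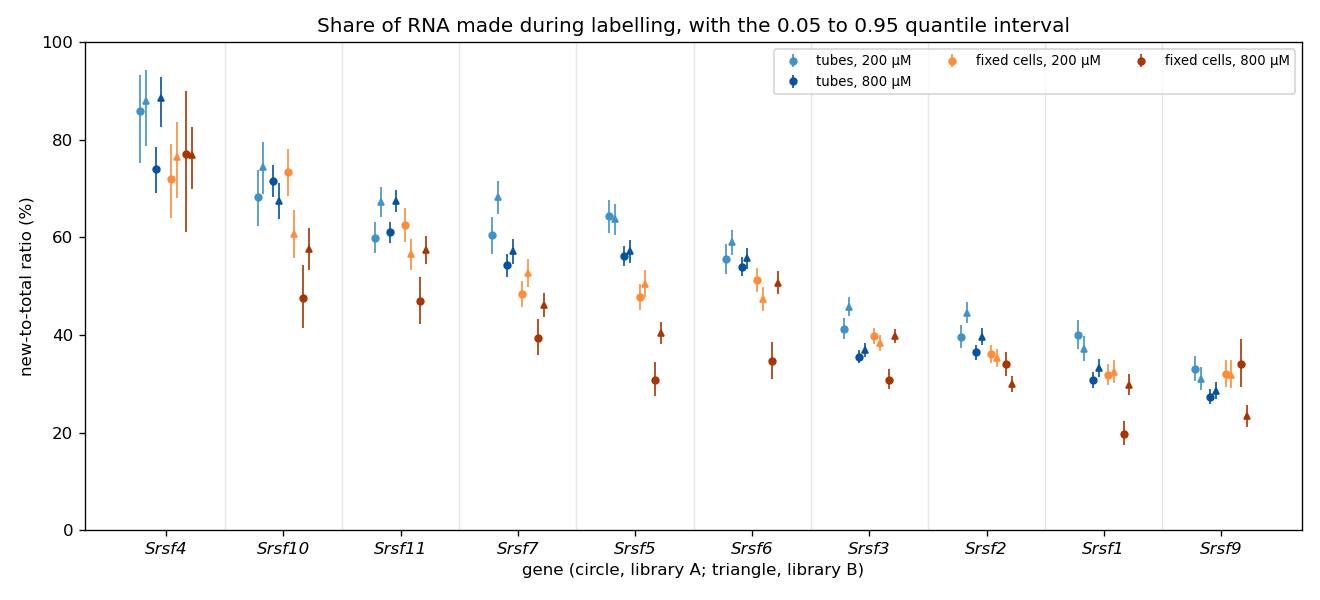
New-to-total ratio of each SR gene in the 8 libraries with 4sU, in percent, ordered by the mean; bars span the authors' 0.05 to 0.95 quantile interval (circle, library A; triangle, library B). Srsf4 lies between 71.9% and 88.5% and Srsf9 between 23.3% and 34.0%, and most fixed-cell points at 800 µM lie below the tube points.

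The effect of 4sU on total RNA was compared with the cells of the same procedure that received none. None of the 10 SR genes passed the threshold (edgeR quasi-likelihood F test, BH-adjusted p under 0.05) at either dose in either procedure. Among all genes tested, 3.75% passed in tubes at 200 µM, 1.87% in tubes at 800 µM, 0.812% in fixed cells at 200 µM and 2.66% in fixed cells at 800 µM. At those rates a set of 10 genes with no call is close to the background. At an unadjusted p under 0.05 the count was 1 of 10 in each of the first 3 comparisons and 2 of 10 in fixed cells at 800 µM. The shares of all genes at that p were 20.8%, 17.6%, 12.6% and 20.1%, in the order of the comparisons above. DESeq2 called 0, 0, 0 and 1 of the 10, beside 552, 273, 119 and 575 of all 11080 genes. The fold changes had standard errors of 0.12 to 0.20 on the log2 scale.

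Srsf6, which binds exonic enhancers and has a pair of RNA recognition motifs, came closest in tubes. In CPM it read 237.5 and 219 in unlabelled cells, 272 and 329 with 200 µM, and 295 and 293 with 800 µM. The tube libraries with 4sU lay above both without it. The log2 fold change was 0.40 (SE 0.13, edgeR adjusted p = 0.0975) at 200 µM and 0.37 (SE 0.13, edgeR adjusted p = 0.164) at 800 µM. In fixed cells Srsf6 read 236.5 and 249 unlabelled and 292 and 313 with 200 µM. With 800 µM it read 237.5 and 287, which overlapped the unlabelled pair. Its fold change there was 0.32 (SE 0.13) and 0.11 (SE 0.13), with edgeR adjusted p of 0.321 and 0.679.

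Srsf3 came closest in fixed cells. It read 534 and 529 CPM in the controls, 582 and 653 with 200 µM, and 792 and 636 with 800 µM. All 4 labelled libraries were higher than both controls, with library A at 800 µM the highest. The log2 fold change at 800 µM was 0.43 (SE 0.13, edgeR adjusted p = 0.0805). DESeq2 called it at 0.46 (adjusted p = 0.0186), beside 3.14% of genes called higher, and edgeR without the filter on low counts at 0.42 (adjusted p = 0.0487), beside 2.58%.

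That comparison rested on which 800 µM library was kept. Without library B, edgeR called Srsf3 at 0.58 (adjusted p = 0.00579), Srsf1 at 0.56 (adjusted p = 0.0108) and Srsf2 at 0.41 (adjusted p = 0.0388), beside 6.3% of genes called higher. Without library A, none of the 10 passed, and Srsf3 read 0.31 (adjusted p = 0.225), Srsf2 0.20 and Srsf1 0.02. Srsf1 itself read 291 and 309.9 CPM in the fixed-cell controls, 336 and 323 with 200 µM, and 443 and 293 with 800 µM. At 800 µM library A was the highest of its 12 libraries, and library B lay between the 2 controls.

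None of the remaining members came as close. In tubes Srsf3 had fold changes of 0.23 and 0.20 at 200 and 800 µM, Srsf2 0.16 and 0.13, and Srsf9 0.14 and 0.12, all on the log2 scale with SE of 0.12 to 0.14. Srsf11 read −0.14 at both doses in tubes, and 0.10 and 0.18 in fixed cells (SE 0.13). Srsf4 read −0.03 and 0.34 in tubes and −0.02 and −0.23 in fixed cells, with the widest SE, 0.19 to 0.20. In fixed cells Srsf9 read −0.05 and −0.14, Srsf1 0.13 and 0.29, and Srsf2 0.09 and 0.28, at 200 and 800 µM, and Srsf3 read 0.22 at 200 µM. In tubes Srsf1 read −0.14 and 0.08. Values of Srsf5, Srsf7 and Srsf10 lay between −0.16 and 0.14 in all 4 comparisons.

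The median of the 10 log2 fold changes was −0.06 in tubes at 200 µM, 0.11 in tubes at 800 µM, 0.09 in fixed cells at 200 µM and 0.13 in fixed cells at 800 µM. The same medians over all tested genes were 0.03, 0.03, 0.00 and 0.00. Across the 5538 genes with a ratio, genes of higher ratio had lower fold changes, with Spearman's rho of −0.24 and −0.26 in tubes and −0.31 and −0.39 in fixed cells at 200 and 800 µM. These are correlations across genes, which share libraries and are not independent replicates. Srsf4 and Srsf10, the members with the highest ratios, read between −0.23 and 0.34 in these comparisons.

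Scaling bears on the sign of such small values. When TMM factors were taken from the 1846 genes with the lowest ratios, the median over all genes shifted to −0.16, −0.14, −0.11 and −0.18 in the 4 comparisons. The medians over the SR genes became −0.25, −0.06, −0.02 and −0.05, so 3 of the 4 changed sign. No SR gene passed under that scaling. Srsf3 and Srsf6 stayed above 0 except Srsf6 in fixed cells at 800 µM (−0.07), while Srsf5, Srsf7, Srsf10 and Srsf11 fell to between −0.10 and −0.01 in that same comparison.

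**Figure D3:**
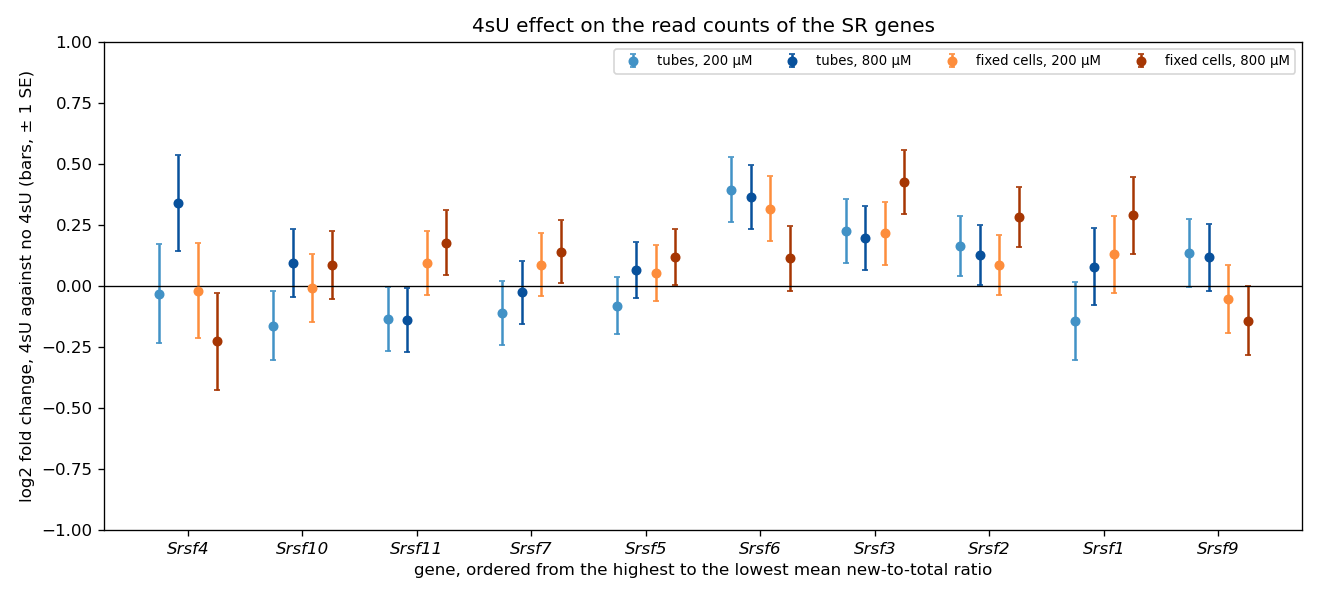
Log2 fold change of total RNA with 4sU against no 4sU for each SR gene, in both procedures and at both doses; bars are ± 1 SE and genes run from the highest to the lowest mean ratio. The points lie between −0.23 and 0.43, and none passed the adjusted threshold.

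The 4sU effect itself was compared between the procedures. No SR gene passed at 200 µM or at 800 µM (edgeR, interaction contrast), and 0.0% of all tested genes did. At an unadjusted p under 0.05 in edgeR the count among SR genes was 0 at each dose, beside 9.0% and 5.9% of all genes. DESeq2 called 0 SR genes, beside 11 of all 11080 genes at 200 µM and 0 at 800 µM. The differences, fixed cells minus tubes, ran from −0.19 to 0.27 at 200 µM (SE 0.16 to 0.28) and from −0.57 to 0.32 at 800 µM (SE 0.16 to 0.28). At 200 µM the differences were 0.27 for Srsf1, 0.23 for Srsf11, 0.20 for Srsf7, 0.16 for Srsf10, 0.13 for Srsf5, 0.01 for Srsf4, −0.01 for Srsf3, −0.08 for Srsf2 and for Srsf6, and −0.19 for Srsf9. At 800 µM they were 0.32 for Srsf11, 0.23 for Srsf3, 0.21 for Srsf1, 0.17 for Srsf7, 0.16 for Srsf2, 0.06 for Srsf5, −0.01 for Srsf10, −0.25 for Srsf6 and −0.26 for Srsf9. The widest gap was that of Srsf4 at 800 µM, −0.57 (SE 0.28, adjusted p = 0.822), from few reads: 24.2 and 34.8 CPM in fixed cells with 800 µM against 44.6 and 35.6 in tubes.

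For the step from 200 to 800 µM no SR gene passed in total RNA in either procedure, and 0.0% of all genes passed. At an unadjusted p under 0.05 no SR gene passed in edgeR, beside 8.9% of all genes in tubes and 7.9% in fixed cells. DESeq2 called 0 SR genes, beside 13 of all 11080 genes in tubes and 0 in fixed cells. Log2 fold changes ran from −0.04 (Srsf2) to 0.37 (Srsf4, SE 0.20) in tubes and from −0.21 (Srsf4) to 0.21 (Srsf3, SE 0.13) in fixed cells. In tubes Srsf10 read 0.26 and Srsf1 0.22, Srsf7 0.09, Srsf11 0.00, Srsf9 −0.02, Srsf3 −0.03 and Srsf6 −0.03, with Srsf5 at 0.15. In fixed cells Srsf2 read 0.20, Srsf1 0.16, Srsf10 0.09, Srsf11 0.08, Srsf5 0.07, Srsf7 0.05, Srsf9 −0.09 and Srsf6 −0.20. The 2 procedures share no library, but each dose step shares its 200 µM and 800 µM libraries with the 4sU effects above.

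The procedures were next compared without 4sU. They differ in fixation, in the reaction conditions and in whether RNA was isolated before the reaction. Srsf11 and Srsf9 were lower in fixed cells, and the other 8 SR genes did not pass (edgeR, BH-adjusted p under 0.05). In this comparison 31.4% of all genes passed, and 15.2% of all genes passed as lower in fixed cells, so 2 falls among 10 is near the background share. DESeq2 called the same 2 genes, beside 1573 of all 11080 genes called lower.

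Srsf11, an arginine- and serine-rich protein that contacts the splicing factor U2af, read 428 and 489 CPM in tubes and 268 and 259 in fixed cells. The log2 fold change was −0.80 (SE 0.13, edgeR adjusted p = 0.000208). With 4sU the gap was of the same sign: the 4 labelled tube libraries lay between 376 and 459, and the 4 labelled fixed-cell libraries between 277 and 312. All 6 fixed-cell libraries of Srsf11 were below all 6 tube libraries. Its call held with each of the 4 unlabelled libraries left out in turn, at fold changes of −0.89 to −0.70.

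Srsf9, a small SR protein with a short tail, read 347 and 363 CPM in tubes and 263 and 226 in fixed cells. Its log2 fold change was −0.54 (SE 0.14, edgeR adjusted p = 0.00674). With 4sU it read 382 to 399 in tubes and 190.1 to 252 in fixed cells, again without overlap. The call was lost without tube library B (−0.51, adjusted p = 0.0515) and without fixed-cell library B (−0.46, adjusted p = 0.0884).

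Of the other members, Srsf3 read 454 and 461 CPM in tubes and 534 and 529 in fixed cells, a log2 fold change of 0.22 (SE 0.13, edgeR adjusted p = 0.225). Srsf2 read 384 and 396 in tubes and 432 and 441 in fixed cells, 0.16 (SE 0.12, adjusted p = 0.333). Neither pair overlapped, yet neither passed. Srsf7 differed by 0.15, Srsf4 by 0.13, Srsf6 by 0.09, Srsf5 by −0.13, Srsf10 by −0.13 and Srsf1 by −0.15, with SE of 0.12 to 0.20. By non-overlap alone 4 members lay below and 2 above in fixed cells, while 34.0% of all genes lay below and 33.7% above.

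Fixed cells and tubes also differed in a property tied to transcript length. Across all tested genes, the fold change between procedures fell with the deposited length, with Spearman's rho of −0.42. Srsf11 has a length of 3106 bases and Srsf9, the shortest member, 1392 bases; the part of length in these results was not tested. Scaling mattered more here than elsewhere. With factors from the low-ratio genes the median over all genes moved from −0.01 to −0.35, and 5 members passed as lower, beside 32.7% of genes. They were Srsf11 at −1.14, Srsf9 at −0.89, Srsf1 at −0.50, Srsf10 at −0.47 and Srsf5 at −0.47. Under that scaling Srsf2, Srsf3, Srsf4, Srsf6 and Srsf7 changed sign, to values of −0.26 to −0.13.

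**Figure D4:**
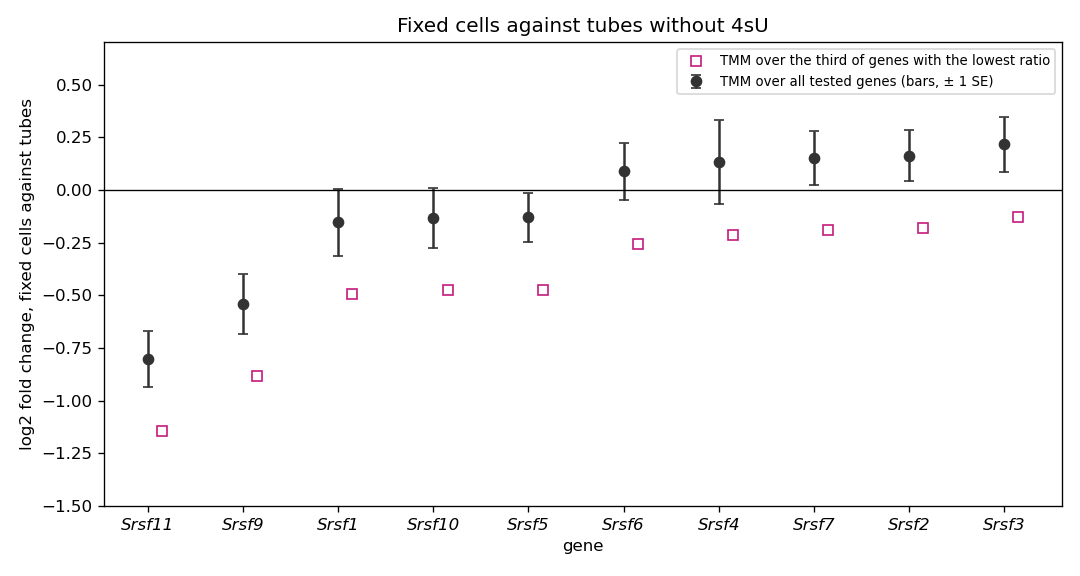
Log2 fold change of each SR gene in fixed cells against tubes without 4sU, with TMM factors from all tested genes (filled, bars ± 1 SE) and from the genes with the lowest ratios (open squares). Srsf11 and Srsf9 are lowest under both, at −0.80 and −0.54 by the first, and the open squares all lie below 0.

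The ratio was compared between procedures at matched doses. It was lower in fixed cells than in tubes without overlap for 7 of 10 SR genes at 200 µM and for 7 of 10 at 800 µM, and higher without overlap for none. Of all 5538 genes, 42.9% and 48.6% lay lower without overlap and 12.2% and 4.59% higher. None of the SR genes passed limma's test on the logit scale (BH-adjusted p under 0.05), and 0.0% of all genes passed at either dose. At an unadjusted p under 0.05 the count was 2 of 10 at each dose, beside 19.1% of all genes at 200 µM and 20.3% at 800 µM. The median difference over the SR genes was −0.28 logit units at 200 µM and −0.44 at 800 µM, against −0.19 and −0.31 over all genes.

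Srsf5, a factor whose mRNA is induced by growth stimuli, had the smallest p. Its ratio was 64.4% and 63.7% in tubes and 47.8% and 50.5% in fixed cells at 200 µM, and 56.2% and 57.1% in tubes and 30.8% and 40.4% in fixed cells at 800 µM. Fixed cells were lower at both doses. The differences were −0.61 logit units (SE 0.22, limma adjusted p = 0.199) and −0.87 (SE 0.22, limma adjusted p = 0.125).

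Srsf7 showed a similar gap. It read 60.5% and 68.2% in tubes against 48.5% and 52.8% in fixed cells at 200 µM, and 54.3% and 57.1% against 39.5% and 46.1% at 800 µM. The differences were −0.57 and −0.52 (SE 0.23), with limma adjusted p of 0.236 and 0.249. Srsf10 overlapped at 200 µM, with 68.2% and 74.5% in tubes and 73.5% and 60.8% in fixed cells. At 800 µM it read 71.6% and 67.5% in tubes against 47.6% and 57.6% in fixed cells, a difference of −0.72 (SE 0.31, limma adjusted p = 0.244).

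Srsf4, the member with the highest ratio, had the lowest difference of the 10 at 200 µM, with the widest error. Its tube and fixed-cell libraries did not overlap there, and the difference was −0.84 (SE 0.42, limma adjusted p = 0.312). At 800 µM both fixed-cell values lay within the tube pair, and the difference was −0.34 (SE 0.42, limma adjusted p = 0.659). Srsf11 overlapped at 200 µM (−0.17, SE 0.27) and was lower in fixed cells without overlap at 800 µM (−0.50, SE 0.27, limma adjusted p = 0.328).

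Srsf1, Srsf2 and Srsf6 were lower in fixed cells without overlap at both doses, yet none passed. Srsf2 read 39.6% and 44.6% in tubes and 36.2% and 35.2% in fixed cells at 200 µM, and its difference was −0.27 at each dose (SE 0.17, limma adjusted p of 0.415 and 0.389). Srsf1 differed by −0.29 and −0.37 (SE 0.20), and Srsf6 by −0.32 and −0.50 (SE 0.26), at 200 and 800 µM. Srsf3 differed by −0.19 and −0.05 (SE 0.19).

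Srsf9 did not share that gap. Its ratio was 33.1% and 31.0% in tubes and 32.0% and 31.9% in fixed cells at 200 µM, a difference of 0.00 logit units (SE 0.19). At 800 µM it read 27.3% and 28.5% in tubes and 34.0% and 23.3% in fixed cells, a difference of 0.02 (SE 0.19). The pair in fixed cells at 800 µM enclosed both tube values. Srsf3 at 800 µM likewise overlapped, with 35.6% and 37.0% in tubes and 30.9% and 39.8% in fixed cells.

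The 800 µM comparison depended on the fixed-cell libraries. Without library B, limma called Srsf5 (−1.08, adjusted p = 0.0262), Srsf1 (−0.65, adjusted p = 0.0360) and Srsf6 (−0.83, adjusted p = 0.0431), beside 16.3% of all genes called lower. Without library A none passed, and Srsf5 read −0.66 (adjusted p = 0.277). For Srsf1 the pair itself read 19.8% and 29.7%, and for Srsf6 34.7% and 50.7%.

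For the dose step of the ratio no SR gene passed, in tubes, in fixed cells or in the difference between the procedures (limma, adjusted p under 0.05). A missing call does not show that a ratio stayed equal. Of all genes 0.0% passed in tubes, 0.0181% in fixed cells and 0.0% in the difference. At an unadjusted p under 0.05 the counts among SR genes were 0, 1 and 0, and the shares of all genes were 8.5%, 16.6% and 4.9%. In tubes the differences ran from −0.36 (Srsf7) to 0.03 (Srsf11) logit units, and 9 of 10 were below 0. In fixed cells they ran from −0.62 (Srsf10, SE 0.31) to 0.15 (Srsf4, SE 0.42). The other members read, in tubes, −0.36 for Srsf4, −0.31 for Srsf5, −0.31 for Srsf3, −0.29 for Srsf1, −0.20 for Srsf9, −0.17 for Srsf2, −0.10 for Srsf6 and −0.09 for Srsf10. In fixed cells they read −0.57 for Srsf5 (SE 0.22), −0.38 for Srsf1, −0.32 for Srsf7, −0.30 for Srsf11, −0.28 for Srsf6, −0.17 for Srsf9 and for Srsf2, and −0.16 for Srsf3. The difference between the procedures in that step ran over the 10 genes from −0.53 (Srsf10, SE 0.44) to 0.50 (Srsf4, SE 0.59). The medians over the SR genes were −0.24 in tubes and −0.29 in fixed cells, against −0.20 and −0.32 over all genes. Without fixed-cell 800 µM library B, Srsf1 passed in fixed cells (−0.65, adjusted p = 0.0443), beside 10.4% of genes called lower.

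Multiplying the level by the ratio splits each total into RNA made during labelling and RNA made before it. For Srsf11, new RNA stood at 264 ± 15.6 CPM in tubes and 168 ± 15.7 in fixed cells at 200 µM (SD, n = 2), and old RNA at 153 ± 43.0 and 114 ± 9.62. For Srsf9, new RNA stood at 125 ± 1.98 in tubes and 75.2 ± 6.75 in fixed cells at 200 µM, and old RNA at 265.5 ± 13.7 and 160.1 ± 13.5. Both portions of Srsf9 were lower in fixed cells.

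Mean old RNA at 200 µM was instead higher in fixed cells than in tubes for every member but Srsf9 and Srsf11. For Srsf2 it was 298 CPM in fixed cells against 253 in tubes, and for Srsf3 377 against 301. For Srsf10 it was 29.45 against 25.48, with overlapping libraries. The share of all genes with this direction was not computed. The median ratio of all 5538 genes was lower in fixed cells at that dose, 35.7% and 34.8% against 39.8% and 42.3%. Total Srsf5 at 200 µM was alike, 281 ± 9.12 CPM in tubes and 282 ± 0.00 in fixed cells, but old RNA was 101 ± 1.95 in tubes and 143 ± 5.45 in fixed cells, and new RNA 180.2 ± 7.14 and 139 ± 5.45 (SD, n = 2). For Srsf7 new RNA was 137 ± 27.01 and 137 ± 2.40 at 200 µM, while old RNA was 75.0 ± 3.10 in tubes and 134 ± 13.8 in fixed cells. For Srsf3, new RNA was 234 ± 32.6 in tubes and 241 ± 13.3 in fixed cells at 200 µM, and 191 ± 11.5 and 249 ± 6.08 at 800 µM. Srsf4 consisted mostly of new RNA in every labelled group, 22.7 to 32.3 CPM of it beside 4.00 to 8.82 of old RNA. No test was made of these products, which carry the error of both factors.

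**Figure D5:**
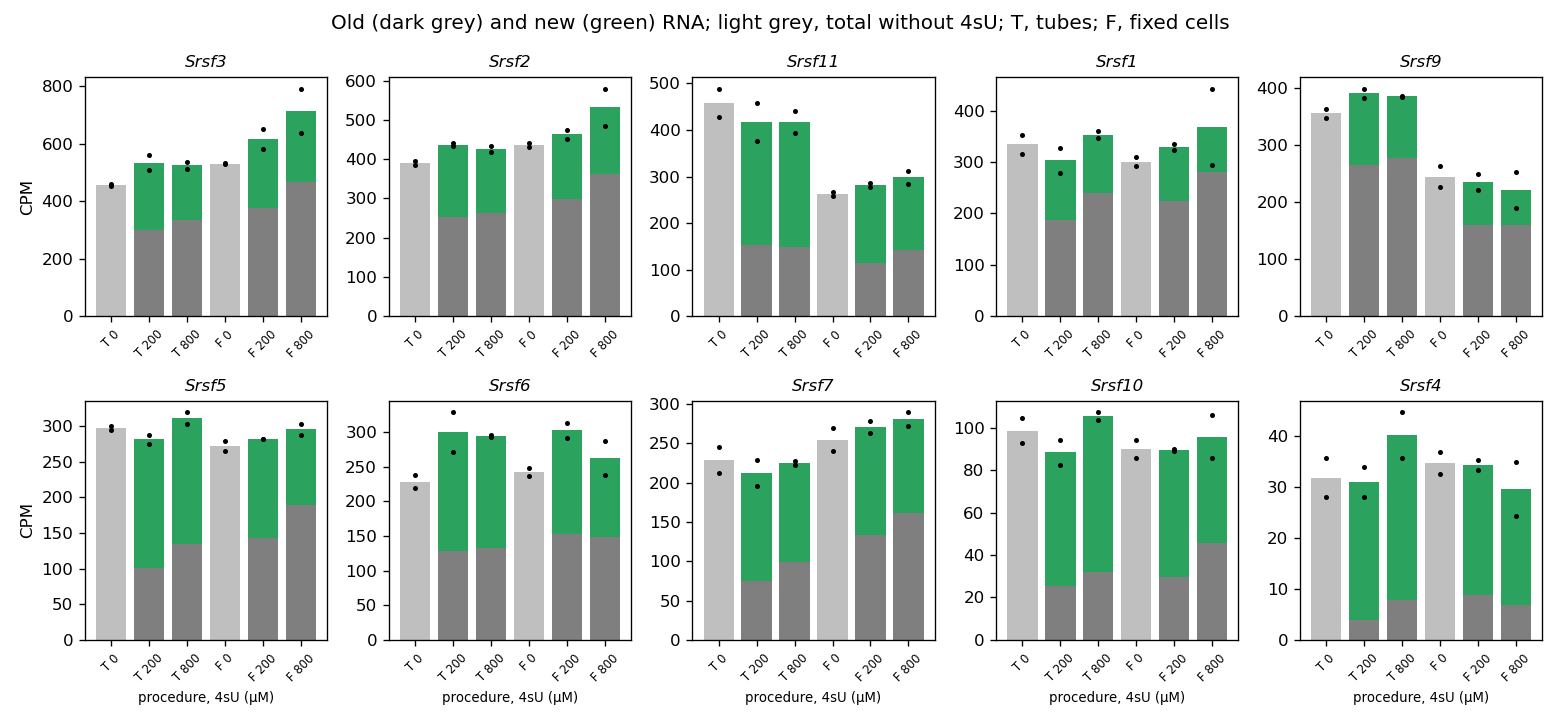
Total RNA of each SR gene in CPM, split into old (dark grey) and new (green) RNA in the groups with 4sU (bars, mean of 2 libraries; dots, totals of libraries A and B; light grey, total without 4sU; T, tubes; F, fixed cells). Srsf4 is mostly new RNA, Srsf9 mostly old, and Srsf11 and Srsf9 have lower totals in fixed cells.

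Other genes of the splicing pathway were read for comparison, from lists chosen with earlier results of these data known. Over all genes, 3.75% and 1.87% passed in tubes and 0.812% and 2.66% in fixed cells, at 200 and 800 µM. In the SR-related list, proteins with similar tails that lack the SR proteins' domain plan, 0 of 28 rose in any 4sU comparison. In tubes at 200 µM 2 fell: Pnisr, from 90.5 and 124 to 69.7 and 49.2 CPM (−0.86, SE 0.19, edgeR adjusted p = 0.0208), and Rsrp1 (−0.50, SE 0.13, edgeR adjusted p = 0.0384). Rsrp1 was the 1 gene of this list to fall in each of the other 3 comparisons, by −0.67 in tubes at 800 µM, −0.70 in fixed cells at 200 µM and −0.83 in fixed cells at 800 µM. It stood at 129 and 154 CPM in fixed cells without 4sU and at 82.5 and 76.5 with 800 µM, and its mean ratio was 91.4%. Under the low-ratio scaling its fold changes were −0.70 to −1.02 and it passed in all 4.

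Among the kinases, the phosphatase and the import receptor that act on SR proteins, 1 of 11 rose and 0 fell in tubes at 200 µM, and 0 of 11 passed in the other 3. The riser was Ppp1ca, the catalytic subunit of protein phosphatase 1, from 446 and 468 to 663 and 658 CPM (0.53, SE 0.12, edgeR adjusted p = 0.0203). Its call was lost under the low-ratio scaling (0.34, adjusted p = 0.0828). Among hnRNP proteins, which often oppose SR proteins at splice sites, 2 of 27 rose in tubes at 200 µM, Hnrnpa1 (0.69) and Hnrnpc (0.50), and 1 of 27 in tubes at 800 µM, Pcbp1 (0.47). None of the 27 passed in fixed cells. Hnrnpa1 kept its call under the low-ratio scaling (0.49, adjusted p = 0.0398), and Hnrnpc and Pcbp1 did not. In the core spliceosome 0 of 34 passed in 3 comparisons and 1 fell in fixed cells at 800 µM, Prpf3, from 93.4 and 93.4 to 61.4 and 58.9 CPM (−0.64, SE 0.14, edgeR adjusted p = 0.0229).

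Nonsense-mediated decay is the route that removes the early-stop forms. Of its 14 listed factors 2 rose in tubes at 200 µM, Eif4a3 (0.56, SE 0.15) and Upf1 (0.68, SE 0.18), and both calls were lost under the low-ratio scaling. At 800 µM Casc3 fell in tubes (−0.75, SE 0.16, edgeR adjusted p = 0.0225), and 0 of 14 passed in fixed cells at either dose. Of 13 genes of mRNA export, which SR proteins Srsf3 and Srsf7 assist, Thoc2 alone passed, falling in tubes at 200 µM (−0.53, SE 0.14, edgeR adjusted p = 0.0409). At an unadjusted p under 0.05, edgeR's counts in tubes at 200 and 800 µM and in fixed cells at 200 and 800 µM were 7, 2, 2 and 5 of 28 for the SR-related list and 1, 1, 0 and 2 of 11 for the kinase list. For the hnRNP list they were 10, 17, 3 and 7 of 27, for the core spliceosome 14, 9, 1 and 7 of 34, for the decay factors 5, 4, 0 and 2 of 14, and for export 3, 2, 0 and 1 of 13. Over all genes the shares were 20.8%, 17.6%, 12.6% and 20.1%. The median log2 fold change of the hnRNP list in tubes at 800 µM was 0.30, against 0.11 for the SR genes and 0.03 for all genes. DESeq2 results of these lists were not read out.

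Low-ratio scaling, which moved the median of all genes below 0, gave more falls. Of all 11080 genes, 554 and 326 fell in tubes and 186 and 716 in fixed cells, at 200 and 800 µM. In the SR-related list 4, 2, 1 and 5 of 28 fell in the 4 comparisons in that order, in the core spliceosome 4, 1, 0 and 2 of 34, and in the kinase list 0, 0, 0 and 2 of 11. Of the decay factors 1, 2, 0 and 1 of 14 fell, of the hnRNP list 2 of 27 and of the export genes 1 of 13, both in tubes at 200 µM. The 1 call upward in any of these lists was Hnrnpa1.

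Where no gene of a list passed, the one with the smallest p is given. Among the kinases and the phosphatase, Ppp1ca read 0.45 (SE 0.12, edgeR adjusted p = 0.0561) in tubes at 800 µM, Prpf4b −0.29 (SE 0.15) in fixed cells at 200 µM and Srpk2, a kinase that phosphorylates SR tails, −0.54 (SE 0.16, edgeR adjusted p = 0.0808) in fixed cells at 800 µM. Among hnRNP genes in fixed cells, Hnrnpa1 read 0.31 (SE 0.14) at 200 µM and Pcbp1 0.41 (SE 0.12, edgeR adjusted p = 0.0647) at 800 µM. In the core spliceosome, U2af1, which recognises the 3′ splice site, read 0.55 (SE 0.15, edgeR adjusted p = 0.0501) in tubes at 200 µM, Eftud2 0.46 (SE 0.14) in tubes at 800 µM and Snrpa1 0.36 (SE 0.16) in fixed cells at 200 µM. Of the decay factors, Smg5 read 0.34 (SE 0.17) and Casc3 −0.41 (SE 0.17) in fixed cells at 200 and 800 µM. Of the export genes, Sarnp read 0.37 (SE 0.14) in tubes at 800 µM and 0.18 (SE 0.14) in fixed cells at 200 µM, and Thoc6 0.39 (SE 0.16) in fixed cells at 800 µM.

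Between fixed cells and tubes without 4sU more genes of the lists passed, as did more of all genes, 16.2% higher and 15.2% lower. In the SR-related list 0 rose and 10 fell of 28, with a median of −0.36 against −0.01 over all genes. They included Srrm2 (−1.27, SE 0.23), a scaffold of nuclear speckles, Pnisr (−1.27, SE 0.19), Thrap3 (−0.86, SE 0.14) and Tra2a (−0.76, SE 0.15), a splicing activator related to SR proteins. In the core spliceosome 14 rose and 4 fell of 34, with a median of 0.35. Among the risers were Sf3b5 (1.24, SE 0.13), Snrpc (1.23, SE 0.15) and Snrpe (1.01, SE 0.16), which code for small proteins of the spliceosome's RNA-protein particles. Under the low-ratio scaling the SR-related list had 0 up and 20 down, and the core spliceosome 7 up and 7 down with a median of 0.01. Of all 11080 genes, 752 were up and 3622 down under that scaling. With factors from all genes, 5 rose and 3 fell of the 27 in the hnRNP list, of the kinase list 1 and 4 of 11, of the decay factors 5 and 5 of 14, and of the export genes 6 and 1 of 13. Under the low-ratio scaling these became 3 and 12 of 27, 1 and 8 of 11, 2 and 7 of 14, and 4 and 2 of 13.

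The ratios of the lists differed as well, given as medians with no test. The SR genes at 51.2% lay between the SR-related list at 64.1% (24 genes with a ratio) and the hnRNP list at 29.9% (26 genes) or the core spliceosome at 30.9% (34 genes). The kinase list stood at 71.7% (9 genes), the decay factors at 53.3% (12 genes) and the export genes at 40.5% (13 genes). Within the SR family the spread from 30.1% to 79.9% was wide enough to span most of these medians.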

How the data were processed

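RNA of NIH-3T3 cells was read by SLAM-seq in 12 libraries of 6 groups. Per the file headers and the values, the deposited table holds expected counts per gene, partly fractional, which were rounded before testing. For the 8 libraries with 4sU it holds the new-to-total ratio, a fraction, with its maximum a posteriori value (used here), posterior mean and 2 quantiles, per the file headers. Alpha and beta are deposited scores that entered no result. Cutadapt, STAR 2.7.10b and Bowtie2 2.3.0 appear, with no roles, in the submitters' processing notes. The genome build, the annotation, the division of reads between genes and the ratio estimator are not stated there or in the labels. By gene ID, 15197 of 15217 genes were found in GENCODE M21 (GRCm38), which also gave the transcript sequences. No protein sequences were used here.

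The test of counts was edgeR 4.0.16 under R 4.3.3 (quasi-likelihood F test, TMM, filterByExpr at its count of 10 and total of 15, Benjamini-Hochberg (BH) adjusted p under 0.05) in 1 fit of the 12 libraries, without a replicate block. CPM use the TMM-scaled library sizes. Residual degrees of freedom were 6 (prior, 12.1 as the median), and the common coefficient of biological variation was 12.3%. Ratios were tested with limma 3.58.1 (trend) on the logit, bounded at 0.001 and 0.999, for 5538 genes with at least 100 counts in each labelled library. The half-life is 2 h times the natural log of 2 over the negative natural log of 1 minus the ratio. Totals were 3629634 to 7762635 counts a library, and a member's 118 to 4538 counts set the precision; intervals of the ratio are the authors'. Both fits were run on simulated data to check the code, which does not measure their power in these data. Alternatives were RLE scaling, TMM over 1846 low-ratio genes, DESeq2 1.42.0, no filter, the compared groups alone, a replicate block and each library left out, and for ratios the posterior mean, a minimum of 30 counts and no logit. The rule was to name all 10 members in each comparison, by value or within a range. The members were set by gene name, and both they and the lists were chosen with earlier results of these data known. From each other list the gene with the smallest p in each comparison of 4sU with no 4sU is named; Hnrnpc, Upf1 and the list genes named between procedures were picked after their values were seen.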

Additional observations from a re-analysis of the deposited data

How the results depend on the processing

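Of 1420 recomputed values of single SR genes, 1370 kept their side of the threshold and, beyond 1 SE, their sign, and the causes of the others were not tested. Changes of sign within 1 SE of uncalled values are only counted: 124 values changed sign in all, 76 of them with 1 library left out. Counts of SR genes past the threshold changed in these settings: fixed cells at 800 µM 1 with DESeq2 and 1 without the filter, and procedures without 4sU 5 with low-ratio scaling. Leaving out 1 library gave 0 to 3 in fixed cells at 800 µM, 1 to 2 between procedures without 4sU, 0 to 3 for the ratio between procedures at 800 µM and 0 to 1 for its dose step in fixed cells. The lone library of such a group was assumed to vary like the others. With all libraries kept, the shares of all genes called in these comparisons were, in the same order, 2.66%, 31.4%, 0.0% and 0.0181%. Calls over all genes moved too. Without fixed-cell 800 µM library B they rose in fixed cells at 800 µM and in both ratio comparisons. Between procedures without 4sU they fell with any 1 library left out. Whether the SR counts differ from the all-gene shares was not tested. In all 14 comparisons the replicate block gave the same counts, 2 between procedures without 4sU and 0 elsewhere, and the letters A and B were not shown to pair samples (correlations of A minus B between groups −0.104 to 0.095). With low-ratio scaling these values changed sign, while called or with a move of more than 1 SE from the main value. In tubes at 200 µM they were Srsf2 −0.028 and Srsf9 −0.056. In tubes at 800 µM they were Srsf1 −0.085, Srsf2 −0.036, Srsf5 −0.099, Srsf9 −0.047 and Srsf10 −0.069. In fixed cells at 800 µM they were Srsf5 −0.062, Srsf6 −0.066, Srsf7 −0.044, Srsf10 −0.103 and Srsf11 −0.008. Between procedures they were Srsf2 −0.179, Srsf3 −0.127, Srsf4 −0.212, Srsf6 −0.255 and Srsf7 −0.192. With 1 library left out, some uncalled values changed sign and moved by more than 1 SE from the main value. That distance is not the distance from 0. The 4sU effect did so for Srsf11 in tubes at 200 µM (−0.282 to 0.001). In fixed cells at 800 µM it did so for Srsf4 (−0.519 to 0.059), Srsf6 (−0.031 to 0.297) and Srsf9 (−0.361 to 0.102). The difference between procedures in the 800 µM effect did so for Srsf1 (−0.027 to 0.475) and Srsf9 (−0.482 to 0.019). The dose step did so for Srsf6 (−0.16 to 0.116) and Srsf11 (−0.135 to 0.149) in tubes and Srsf1 (−0.152 to 0.426), Srsf4 (−0.5 to 0.038), Srsf9 (−0.308 to 0.117) and Srsf10 (−0.049 to 0.239) in fixed cells. For the ratio at 800 µM between procedures it was Srsf3 (−0.244 to 0.148), Srsf4 (−0.833 to 0.156) and Srsf9 (−0.244 to 0.286). For the dose step of the ratio it was Srsf4 in tubes (−0.849 to 0.14) and Srsf3 (−0.36 to 0.031), Srsf6 (−0.609 to 0.054) and Srsf9 (−0.436 to 0.094) in fixed cells. Over all genes, calls ranged from 18 to 854 in tubes at 200 µM, 22 to 482 in tubes at 800 µM, 2 to 652 in fixed cells at 200 µM and 24 to 1199 in fixed cells at 800 µM across the settings. Depth limits Srsf4 most, with 118 to 350 counts a library.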
